A study of Mus musculus with 8 samples.

Results

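Divergent protein-coding promoters are stretches of DNA from which a pair of neighbouring genes is transcribed in opposite directions. They were taken here as pairs of protein-coding genes of the GENCODE vM21 annotation (mouse GRCm38) on opposite strands whose outermost start sites lie back to back at most 1 kb apart. A member was a region formed by merging the ATAC-seq peaks of all 8 libraries that overlapped the interval between both starts, extended by 250 bp on each side. The rule found 755 pairs of 1489 genes, and 1058 of the 174718 merged regions were members. Of the members, 797 had a peak in all 8 libraries and could be ranked in each of them; these are called tested below. The comparison set held 10748 regions within 250 bp of the start of any other protein-coding gene, of which 7609 were tested, and 47875 regions of any kind were tested in all.

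A shared promoter of this kind is usually a CpG-rich stretch without a TATA box, in which a single nucleosome-depleted window serves a transcription complex on each side. Many of the genes arranged in this way act in housekeeping processes such as DNA repair, mitochondrial function and RNA processing. Ikaros (IKZF1) is a zinc-finger transcription factor of lymphocytes that binds DNA with a GGAA or GGGA core and recruits the nucleosome remodelling complex NuRD. ATAC-seq reads open chromatin through the insertion of adapters by the transposase Tn5.

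The cells were B3, a mouse pre-B cell line, and every library came from cells transduced with Ikaros-ERt2, a fusion that enters the nucleus when 4-hydroxytamoxifen (4-OHT) is given. Cells had no treatment (0 h) or received 4-OHT at 500 nM over 30 min, 1 h or 2 h, and each of the 4 groups had 2 replicate libraries. No library from solvent-treated cells or from 4-OHT-treated cells without the fusion was analysed here, so an effect of 4-OHT and an effect of Ikaros cannot be told apart. The labels do not say whether the replicates were separate cultures, so the p-values measure only the spread between these libraries. Bulk chromatin was measured, so a site open in fewer cells and a site less open in each cell cannot be told apart either. The libraries held 85903 to 103897 peaks with a median of 11 to 14 fragments at the summit, and the background ranged from 0.26 to 0.405 fragments per base, lowest in 0 h replicate 2. Among the pre-B cell genes looked up, 7 had a promoter peak in every list, while Rag1 had one in 7 lists and Vpreb1 in 4. None of 4 myeloid genes had one in any list, and of the 4 T-cell and 4 red-cell genes, Cd3g had one in 7 lists, Epor in 5, Klf1 in 3 and the rest in none.

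The sequences of 5 members are given first, because the results below turn on 3 of them and the other 2 are textbook examples of divergent promoters. Each is the plus strand, 5′ to 3′, of RefSeq's copy of GRCm38 within 200 bp around the summit, limited to stretches outside annotated exons. Capitals mark the Ikaros core words GGAA and GGGA and their complements TTCC and TCCC, which run together where they touch or overlap. The first is the promoter between Kdelc1 and Bivm, which had the largest fall in rank, and the second lies between Cenpx and Lrrc45, which had the most core words of the 5 largest falls. The third is an intron segment of Mmab, which rose. The last ones separate Atm from Npat and Mcm4 from Prkdc.
Kdelc1/Bivm (chr1:44118809-44118956): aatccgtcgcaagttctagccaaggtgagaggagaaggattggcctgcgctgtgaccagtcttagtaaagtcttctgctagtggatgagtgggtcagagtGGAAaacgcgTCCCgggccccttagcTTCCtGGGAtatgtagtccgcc
Cenpx/Lrrc45 (chr11:120713739-120713883): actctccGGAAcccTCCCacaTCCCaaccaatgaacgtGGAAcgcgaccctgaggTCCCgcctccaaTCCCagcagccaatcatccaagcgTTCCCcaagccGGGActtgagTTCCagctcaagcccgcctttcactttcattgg
Mmab/Mvk (chr5:114443660-114443859): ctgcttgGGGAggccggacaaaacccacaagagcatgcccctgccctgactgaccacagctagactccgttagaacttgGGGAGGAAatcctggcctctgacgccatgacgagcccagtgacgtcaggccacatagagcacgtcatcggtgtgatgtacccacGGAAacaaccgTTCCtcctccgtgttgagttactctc
Atm/Npat (chr9:53536821-53537020): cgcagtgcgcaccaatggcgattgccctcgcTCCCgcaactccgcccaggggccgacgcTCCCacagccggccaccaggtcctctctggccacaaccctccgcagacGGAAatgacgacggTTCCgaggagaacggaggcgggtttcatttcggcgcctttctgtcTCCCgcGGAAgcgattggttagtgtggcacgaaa
Mcm4/Prkdc (chr16:15637401-15637583): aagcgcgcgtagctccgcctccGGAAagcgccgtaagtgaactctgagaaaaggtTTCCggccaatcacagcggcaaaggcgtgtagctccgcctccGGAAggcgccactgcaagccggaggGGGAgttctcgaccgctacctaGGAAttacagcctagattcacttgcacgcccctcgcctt

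The stretch of 148 bases between the starts of Kdelc1 and Bivm held 4 core words, and that of 145 bases between Cenpx and Lrrc45 held 10. Both also held the word CCAAT, the core of the NF-Y site, on at least one strand. The Atm/Npat stretch held 6 core words, CCAAT and the SP/KLF word GGGCGG, and the Mcm4/Prkdc stretch held 5 core words, CCAAT and the ETS word CCGGAAG, which contains GGAA. The Mmab segment held 5 core words and the palindrome TGACGTCA of the cyclic AMP response element. A match to a word is a description of the letters and not a bound site.

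The pairs were compact. The median distance between paired starts was 129 bp (quartiles 66.5 and 240 bp), the largest was 987 bp, and 619 of the 755 pairs had starts within 300 bp. A merged region was found at 687 pairs (91%) and at none for the other 68, while 663 pairs had a tested region. Of these, 513 had 1 tested region and 150 had more, up to 5. At the limit of the rule, the pair Btf3l4/Txndc12, 987 bp apart, had 2 tested regions, at mean percentiles of 70.5 and 45.1 at 0 h. The pair Asphd1/Sez6l2 (981 bp) had a region that was not tested. Just outside the limit, Gpr108/Trip10 (1009 bp) had 2 tested regions, at 70.5 and 55.3, and Serpina7/4930513O06Rik (1007 bp) had none.

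Divergent promoters were among the more accessible regions of these cells. The measure is the fold of the fragment pileup at the highest summit of a region over the local background, as the authors' peak caller gave it, turned into a percentile among the tested regions of the same library. A percentile of 100 is the highest fold, and because it is a rank, one region can rise only if others fall. At 0 h the median member stood at percentile 74.99 in replicate 1 and 75.96 in replicate 2, where the median of all tested regions is 50 by construction. The top 10% of all tested regions held 25.2% and 27.6% of the members in these libraries. Of the members, 75.3% were tested, against 70.8% of the other protein-coding promoter regions and 27.4% of all merged regions. The 261 untested members were weak, with a median of 11.8 fragments in the libraries where they had a peak, against 42.25 for the tested ones. Of these, 78 had a peak in a single list and 46 in 7 lists.

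The members' median rank went from 75.5 ± 0.684 (mean of the library medians ± SD, n = 2) at 0 h to 72.3 ± 0.0539 after 30 min, 70.3 ± 0.0347 after 1 h and 70.05 ± 1.60 after 2 h. By library the medians were 72.3 and 72.4 after 30 min, 70.25 and 70.3 after 1 h and 71.2 and 68.9 after 2 h. Every 4-OHT library was therefore below both 0 h libraries. The share of members in the top 10% was 19.2% and 21.2% after 2 h. The other promoters had medians of 73.45 ± 0.385 at 0 h, 72.15 ± 0.537 after 30 min, 69.6 ± 0.907 after 1 h and 68.7 ± 0.849 after 2 h. When a region was ranked among all peaks of its list, members stood at 86.35 ± 0.380 at 0 h and 85.5 ± 1.298 after 2 h, and the values of the single libraries overlapped (86.6 and 86.1 against 86.4 and 84.6). The fall of the members' median thus showed in ranks among the tested regions and not in ranks among all peaks, whose number also differed between libraries. An exact permutation test of 2 libraries against 2 cannot give a two-sided p below 0.333, so none is given for the medians.

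**Figure D1:**
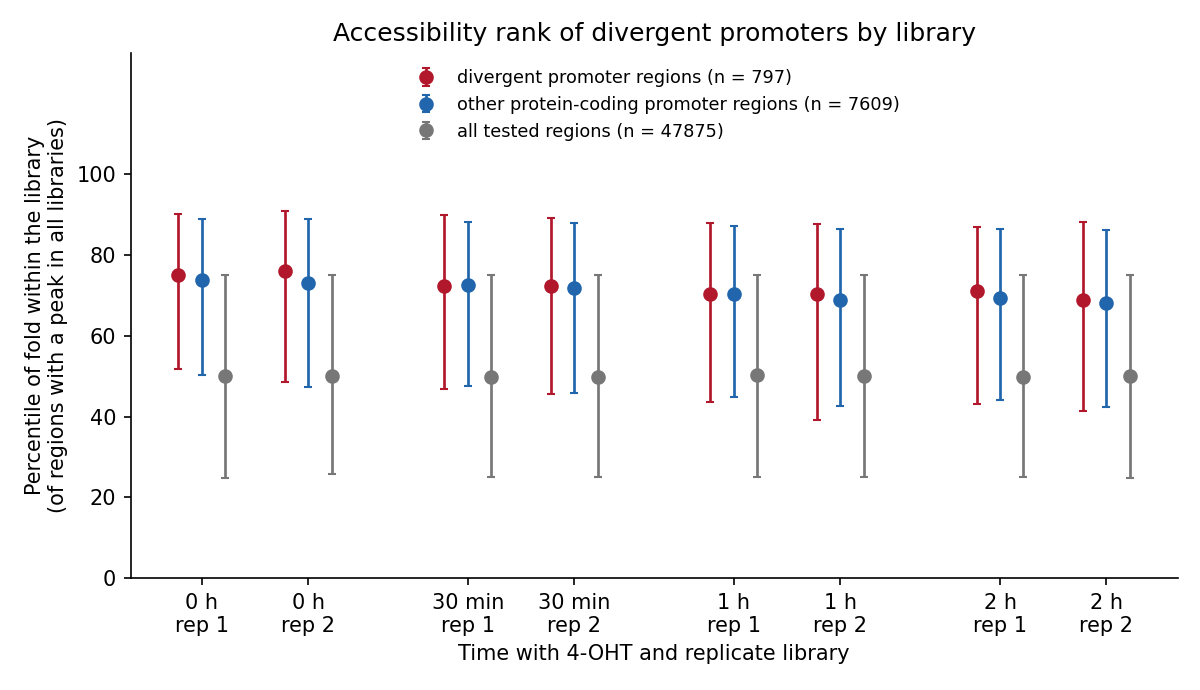
Percentile of fold within each library (vertical axis) in the 8 libraries ordered by time with 4-OHT (horizontal axis); points are medians over regions and bars run from the first to the third quartile. The medians of the 797 divergent promoter regions lie between 68.9 and 76.0 and those of the 7609 other promoter regions between 68.1 and 73.7, with bars that overlap in every library.

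Divergent promoters and other protein-coding promoters were close at every time. The gap, the members' median percentile minus that of the other promoters in the same library, was 2.03 ± 1.07 points (SD, n = 2 libraries) at 0 h, with 1.27 and 2.78 in the single libraries. It was 0.192 ± 0.591 after 30 min, 0.660 ± 0.942 after 1 h and 1.31 ± 0.748 after 2 h. The gaps of the 0 h libraries did not differ from those of the 2 h libraries beyond their spread (1.27 to 2.78 against 0.784 to 1.84), while those of the 30 min libraries, -0.226 and 0.610, lay below both 0 h gaps. Ranked among all peaks, the gap was 1.21 ± 0.709 at 0 h and 0.658 ± 0.354 after 2 h. Its sign rested on which regions were counted. Against other promoters with a CpG observed over expected ratio of at least 0.6 it was 1.20 at 0 h, -0.88 after 30 min, -0.56 after 1 h and -0.14 after 2 h. With the pair interval extended by 500 bp it was -0.29 at 0 h and -0.50 after 2 h, and with no extension it was 6.45 and 5.83. Against other promoters taken within 1 kb of a start it was 9.47 and 8.62. In these settings the windows of members and other promoters were unlike, because only one of them was changed from 250 bp. With no extension or the 1 kb window, regions beside the paired starts counted as other promoters. These gaps thus partly set the middle of divergent pairs against their own flanks.

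Most members kept near their rank. From 0 h to 2 h the median member moved by -2.79 percentile points, the median other promoter by -1.89 and the median tested region by 1.35. The quartiles of the members were -12.2 and 3.26 points. Of the members, 469 (58.8%) stayed within 10 points of their 0 h rank, against 55.4% of the other promoters and 39.3% of all tested regions. Members stand higher on the scale than all tested regions, and near its top few points can hide a larger change. The Acad8/Thyn1 region moved by -3.54 points while its fragments went from 154 and 134 to 81 and 76. The part of the starting level in these shares was not tested. Replicate libraries differed by a median of 5.21 to 6.08 points over the members and 7.89 to 8.36 points over all tested regions. Pearson's r between replicates, across members that are not independent of each other, was 0.912 to 0.920.

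**Figure D2:**
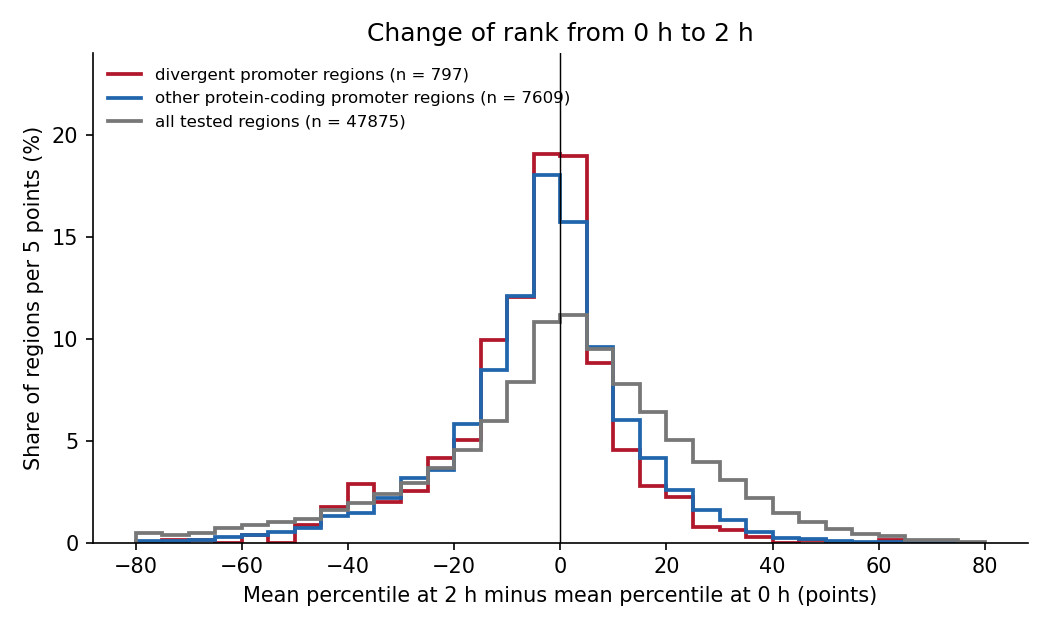
Mean percentile after 2 h minus mean percentile at 0 h (horizontal axis, points; changes past 80 points are in the end bins) against the share of regions per 5 points (vertical axis, %). The 797 divergent promoters (median -2.79) and the 7609 other promoters (median -1.89) form narrower distributions than all 47875 tested regions (median 1.35).

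Few divergent promoters passed a test of change against the spread between replicates. Changes were tested with limma on normal scores of the ranks, with p-values adjusted over all 47875 tested regions (Benjamini-Hochberg) and called under 0.01. At 30 min limma called 0 members lower and 0 higher, and the share called was 0% of all tested regions in either direction. At an unadjusted p under 0.05, 70 members (8.78%) were lower after 30 min, against 9.94% of all tested regions, and 25 (3.14%) were higher, against 9.51%. With a mean trend in the prior 1 member (0.125%) was lower after 30 min, beside 0.437% of all tested regions, and with recovered fragments in place of ranks 3 (0.376%) were, beside 1.3%. At 1 h, 5 members (0.627%) were lower, beside 2.51% of all tested regions and 1.17% of the other promoters, and 2 (0.251%) were higher, beside 1.1% and 0.171%. At 2 h, 16 members (2.01%) were lower, beside 4.71% of all tested regions and 2.54% of the other promoters, and 2 (0.251%) were higher, beside 2.28% and 0.434%. Ranks among all peaks of a list gave 8 lower (1.0%) and 2 higher members (0.251%) after 2 h, beside 2.73% and 2.5% of all tested regions. Recovered fragments gave 51 (6.4%) and 4 (0.502%), beside 9.37% and 5.43% of all tested regions and 5.98% and 1.1% of the other promoters. The comparisons share the 0 h libraries, and 5 of the 7 members called after 1 h were also called after 2 h. The counts leaned on every library of the groups compared. Leaving out any 1 library left 1 in its group, and fewer members were then called lower at 1 h and 2 h. In the same fits fewer of all tested regions were called lower too, so the drop was not particular to members. The 18 members called after 2 h kept their direction in each of these fits. Their 0 h and 2 h values do not overlap, so this was fixed in advance.

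Members lay below their 0 h values more often than above them. Both 30 min libraries were below both 0 h libraries in 234 members (29.4%), beside 24.3% of all tested regions, and above them in 141 (17.7%), beside 25.5%. At 1 h these counts were 300 (37.6%) below, beside 28.4%, and 127 (15.9%) above, beside 30.7%. At 2 h, 305 members (38.3%) were below, beside 29.8%, and 129 (16.2%) above, beside 32.8%. The other promoters leaned the same way at each time. They had 27.7% below and 19.6% above after 30 min, and 35% and 20.4% after 1 h. After 2 h they had 36.1% below and 20.9% above. Whole peaks seldom appeared or vanished. Of 844 members with a peak in both 0 h lists, 19 (2.25%) had none in either 2 h list, beside 16.6% of all merged regions with peaks in both 0 h lists and 2.89% of the other promoters. Of 873 members with a peak in both 2 h lists, 17 (1.95%) had none in either 0 h list, beside 20.5% and 3.34%. The 2 h lists held 103897 and 99060 peaks and the 0 h lists 93936 and 85903, and the part of list length in these counts was not tested.

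The 5 largest falls among the called members were at the pairs Kdelc1/Bivm, Dclre1b/Ap4b1, Cenpx/Lrrc45, Ctns/Shpk and Nvl/Cnih4. Kdelc1 encodes a protein O-glucosyltransferase of the endoplasmic reticulum. The region at chr1:44118731-44119004, which holds both starts 149 bp apart, stood at percentiles 82.5 and 80.1 at 0 h, 32.0 and 37.3 after 30 min, 27.3 and 38.5 after 1 h and 5.50 and 12.8 after 2 h. Its summit had 47 and 37 fragments at 0 h and 8 and 10 after 2 h. Both 0 h libraries were far above the other 6, and the change after 2 h had an adjusted p of 0.00143 by limma.

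Dclre1b encodes the telomere nuclease Apollo, and Ap4b1 a subunit of the AP-4 vesicle adaptor. The region at chr3:103809526-103809813 lies over an untranslated exon of Ap4b1 and holds neither start. It stood at 83.0 and 71.45 at 0 h, 9.76 and 22.9 after 30 min, 4.46 and 16.0 after 1 h and 13.1 and 10.9 after 2 h (adjusted p = 0.00415 by limma after 2 h). Most of its fall was thus present after 30 min, when the adjusted p was 0.0295.

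Cenpx encodes a DNA-binding protein of centromeres and of the Fanconi anemia pathway, and Lrrc45 a centrosome linker protein. Their region, at chr11:120713636-120714009, went from 81.9 and 82.15 at 0 h to 41.1 and 29.0 after 30 min, 17.1 and 38.7 after 1 h and 23.4 in each library after 2 h (adjusted p = 0.00528 by limma). The libraries with 4-OHT overlapped each other and were all below those of 0 h.

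Ctns encodes cystinosin, which exports cystine from lysosomes, and Shpk the kinase of sedoheptulose. The region at chr11:73198985-73199160 holds 1 of the starts and stood at 70.8 and 75.8 at 0 h, 53.25 and 57.5 after 30 min, 31.7 and 26.1 after 1 h and 19.5 and 14.6 after 2 h (adjusted p = 0.0034 by limma). No 2 times overlapped: both values of each later time were below those of the time before.

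Nvl encodes an ATPase of ribosome assembly, and Cnih4 a cargo receptor of the early secretory pathway. The region at chr1:181144052-181144474 stood at 93.95 and 97.0 at 0 h, 90.15 and 88.0 after 30 min, 65.0 and 62.0 after 1 h and 43.8 and 47.2 after 2 h (adjusted p = 0.00211 by limma). Its values also fell at each step without overlap, and the fall after 1 h was already called (adjusted p = 0.00942 by limma).

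The other 11 members that were lower after 2 h changed by -49.1 to -24.03 points and are named here although the naming rule did not choose them. They lay at Tmtc3/Cep290, Cdk5/Slc4a2, Ccdc189/Rnf40, Prepl/Camkmt, Eef1d/Tigd5, Tfpt/Prpf31, Zfp91/Lpxn, Trappc11/Rwdd4a, Zdhhc6/Vti1a, Hjurp/Trpm8 and Vezt/Fgd6. These genes have unlike functions: Hjurp is the chaperone of the centromeric histone CENP-A, Cep290 a protein of the ciliary transition zone, Rnf40 a ubiquitin ligase for histone H2B and Prpf31 a splicing factor. The median of all 16 lower members was 79.3 at 0 h, 37.0 after 30 min, 28.4 after 1 h and 18.1 after 2 h. These values chose the members and carry no test. In 15 of the 16 both 30 min libraries were below both 0 h libraries, beside 24.3% of all tested regions. In Tfpt/Prpf31 they overlapped (30.3 and 47.6 against 37.9 and 50.7). The 0 h libraries that chose the members also enter this count, so it carries no test either. Hjurp/Trpm8 had the most fragments, 162 and 137 at 0 h and 70 and 57 after 2 h, and Zdhhc6/Vti1a ended lowest, at percentiles 0.535 and 0.149.

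**Figure D3:**
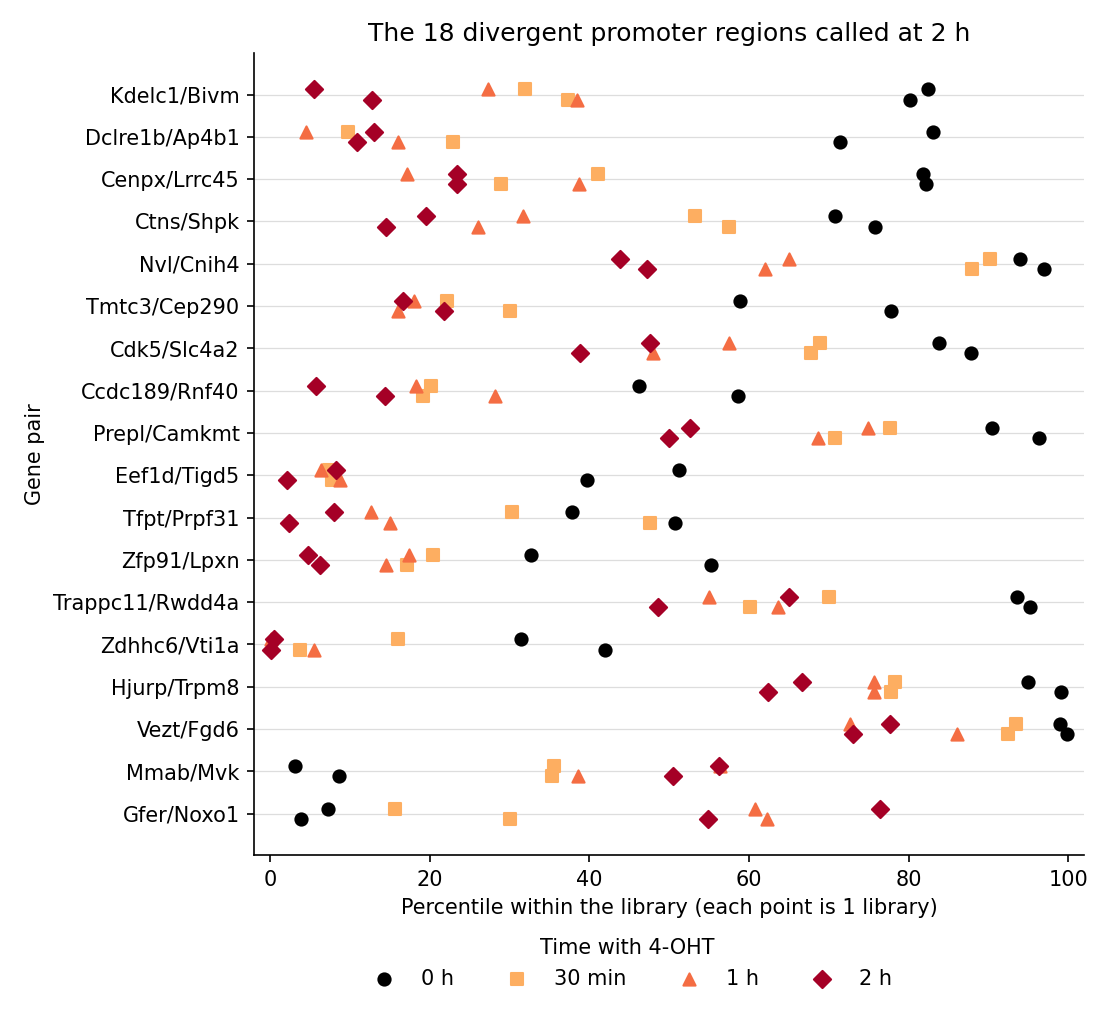
Percentile within the library (horizontal axis) of the 18 divergent promoter regions called after 2 h, one gene pair per line; each point is 1 library, with the time with 4-OHT shown by colour and marker. In the 16 lower regions both 2 h points lie left of both 0 h points, and in Mmab/Mvk and Gfer/Noxo1 they lie right of them.

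Only 2 members were called higher after 2 h, and neither region holds a start. Gfer encodes a sulfhydryl oxidase of mitochondrial protein import, and Noxo1 an organiser of NADPH oxidase. The region at chr17:24696455-24696674, over an untranslated exon of Noxo1, stood at 7.25 and 3.93 at 0 h, 15.7 and 30.1 after 30 min, 60.8 and 62.2 after 1 h and 76.4 and 54.9 after 2 h. It had 12 and 7 fragments at 0 h and 43 and 27 after 2 h, and its adjusted p was 0.00527 after 1 h and 0.00262 after 2 h by limma. Mvk encodes mevalonate kinase of cholesterol synthesis, and Mmab the enzyme that makes adenosylcobalamin. Their shared promoter is known to respond to sterols, but the region that rose holds neither start. The region at chr5:114443697-114443843, in an intron of Mmab, stood at 3.07 and 8.61 at 0 h, 35.5 and 35.3 after 30 min, 56.4 and 38.5 after 1 h and 56.3 and 50.45 after 2 h (adjusted p = 0.00421 by limma after 2 h). In both regions every library with 4-OHT was above both 0 h libraries.

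Other regions of the same pairs did not pass the test. Of the 18 called members, 9 shared their pair with another tested region, and none of those 9 regions was called after 2 h by limma. Of all tested regions, 4.71% were called lower and 2.28% higher, so a count over 9 regions is not read as a difference. Beside the fallen Dclre1b/Ap4b1 region, the region over the start of Dclre1b (chr3:103809271-103809457) stood at 85.2 and 89.05 at 0 h and 93.6 and 92.35 after 2 h (adjusted p = 0.482 by limma). Beside the fallen Ctns/Shpk region, the one over the other start stood at 82.0 and 94.5 at 0 h and 89.7 and 94.3 after 2 h. At Ccdc189/Rnf40 the region that holds both starts stayed high, at 94.8 and 93.7 at 0 h and 96.5 and 96.9 after 2 h.

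In 3 pairs both regions moved by 27.3 points or more, in opposite directions. At Zdhhc6/Vti1a the called region, over the start of one gene, went from 31.5 and 42.0 to 0.535 and 0.149, while the region in an intron of Vti1a, chr19:55316473-55316778, went from 58.5 and 62.8 to 93.1 and 90.5 (adjusted p = 0.0143 by limma, short of the threshold). At Prepl/Camkmt the called region went from 90.5 and 96.3 to 52.65 and 50.0 and the other from 51.1 and 48.1 to 79.05 and 74.7 (adjusted p = 0.0605 by limma). At Mmab/Mvk the intron segment rose, and the region that holds both starts, chr5:114443980-114444356, went from 84.5 and 86.1 to 39.0 and 60.5 (adjusted p = 0.0318 by limma). The difference in change between regions of a pair was not tested. The 2 regions are separate only by the merge of peaks, which joins peaks that share a base.

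**Figure D4:**
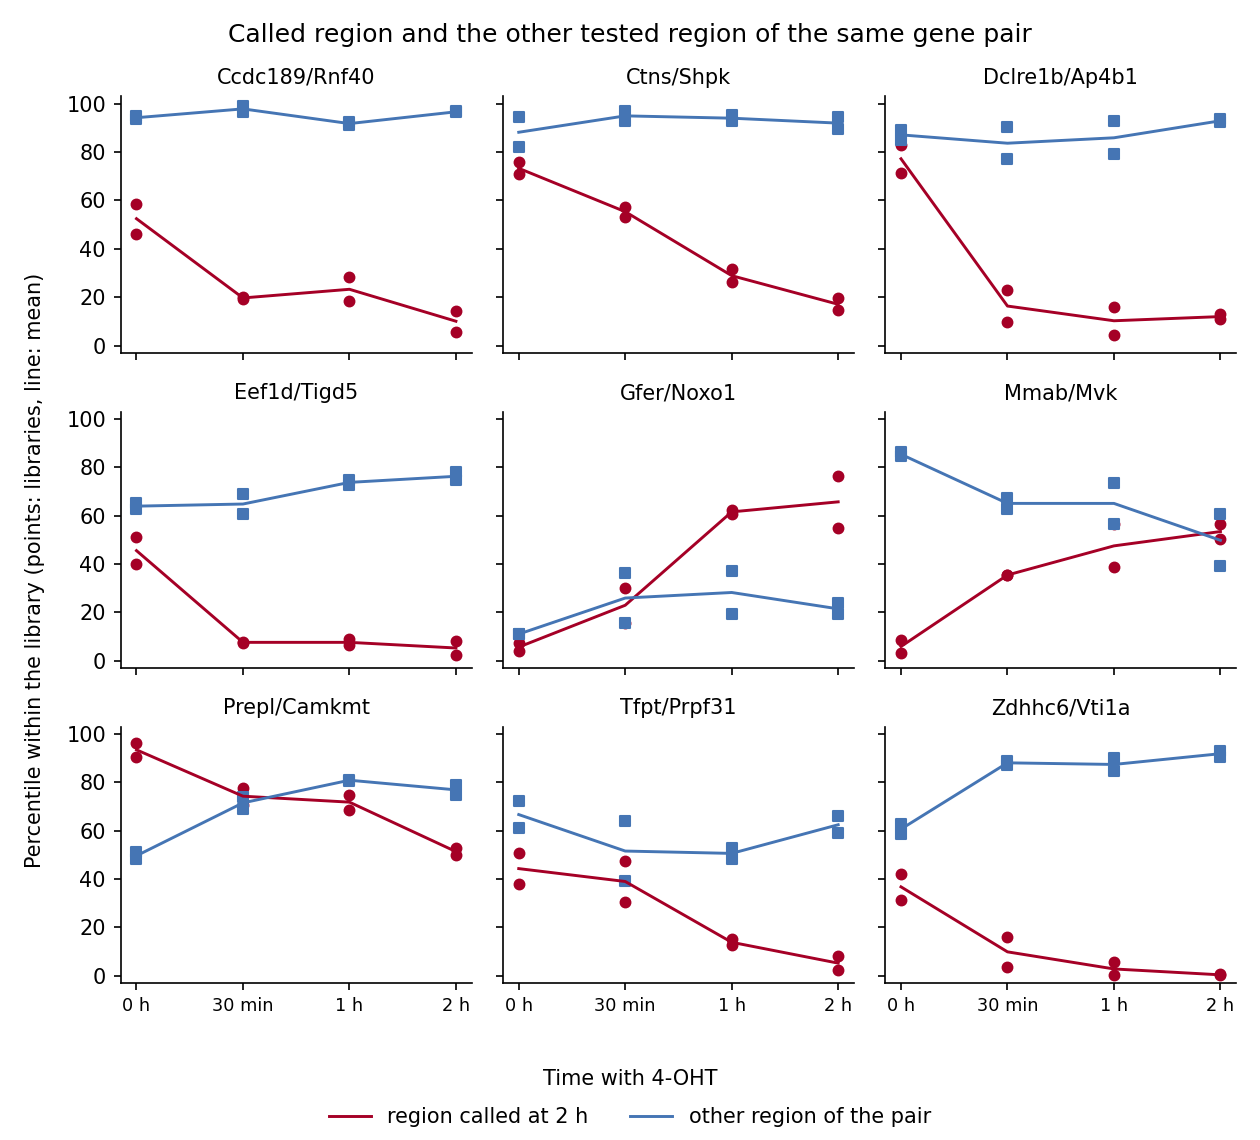
Percentile within the library (vertical axis) by time with 4-OHT (horizontal axis) at the 9 gene pairs with a called and another tested region; points are libraries and lines join the means of 2. The called region (red) ends far below its neighbour (blue) in Ccdc189/Rnf40, Ctns/Shpk, Dclre1b/Ap4b1, Eef1d/Tigd5, Tfpt/Prpf31 and Zdhhc6/Vti1a, where all 2 h values of the called region are at or below 19.5.

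At 1 h, 2 members were called lower that did not pass after 2 h; they were looked up after the counts were seen. One was the core region of Mrps12 and Sars2, which encode a protein of the mitochondrial ribosome and the mitochondrial seryl-tRNA synthetase. It stood at 94.5 and 93.9 at 0 h, 60.5 and 43.75 after 1 h and 76.9 and 64.7 after 2 h, with adjusted p of 0.00854 after 1 h and 0.03 after 2 h by limma. The other, at Acad8/Thyn1, went from 99.8 and 99.9 at 0 h to 94.1 and 95.2 after 1 h and 95.2 and 97.45 after 2 h, with 154 and 134 fragments at 0 h and 81 and 76 after 2 h (adjusted p = 0.00879 and 0.0108 by limma).

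How many starts of its pair a region held went with its level, and also with its width. Tested regions had a median width of 390 bp with both starts, 302.5 bp with 1 and 204 bp with neither. The part of width in the levels was not tested. The 507 tested regions that hold both starts had a median percentile of 84.15 ± 0.396 (SD over 2 libraries) at 0 h and 77.6 ± 0.948 after 2 h. The 162 that hold 1 start had 65.3 ± 0.472 and 59.1 ± 4.10, and those that hold neither had 41.6 ± 1.92 and 34.5 ± 1.63. At every time the 3 classes were separated by more than the spread of their medians between libraries. They also differed in how many could be tested: 98.3% of the 516 members with both starts, 81.8% of the 198 with 1 and 37.2% of the 344 with neither. The members called lower after 2 h were 8 of the first class (1.58%), 4 of the second (2.47%) and 4 of the third (3.12%). Both higher ones were of the third (1.56%). Of all tested regions, 4.71% were called lower and 2.28% higher. Summits lay close to the middle of a pair, at a median of -4.5 bp from it (quartiles -86.5 and 70.5 bp), and 541 of the tested members (67.9%) had theirs within 150 bp. Members were chosen by overlap with the pair interval, so summits near its middle follow in part from the rule. Summits between the genes had a median of 84.0 ± 0.754 at 0 h, those in an untranslated exon 70.4 ± 0.528 and those in an intron 41.2 ± 2.11.

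**Figure D5:**
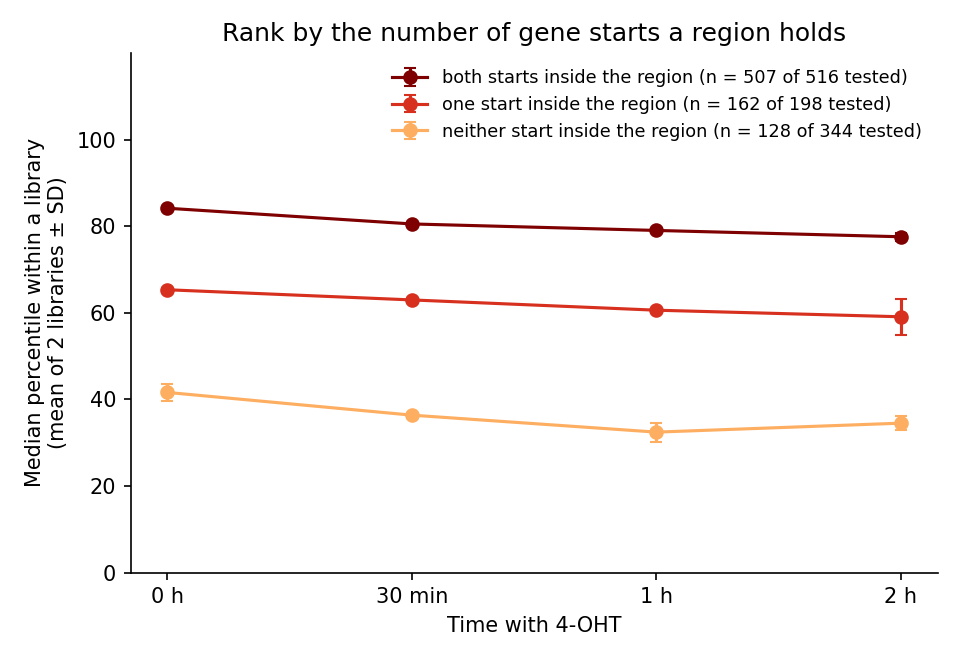
Median percentile within a library (vertical axis, mean of 2 libraries ± SD) by time with 4-OHT (horizontal axis) for members that hold both starts of their pair, one start or neither. The 3 classes stand at 84.15, 65.3 and 41.6 at 0 h and at 77.6, 59.1 and 34.5 after 2 h.

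The distance between starts went with smaller differences in level. The median at 0 h was 75.6 ± 0.0602 for the 314 tested members of pairs up to 100 bp apart, 79.1 ± 1.19 for those over 100 and up to 200 bp, 75.5 ± 0.540 up to 300 bp, 73.9 ± 0.967 up to 500 bp and 66.05 ± 1.88 up to 1000 bp. The widest pairs were lower than each of the others at 0 h beyond the spread between libraries. Across members, Spearman's rho with the mean level over 8 libraries was -0.073 for the distance and 0.386 for the width of the region, as a description over 797 regions that share libraries. In the 150 pairs with more than 1 tested region, the strongest by mean level (146 distinct regions) had a median of 78.9 at 0 h and 72.8 after 2 h, and the weakest (146) had 36.2 and 27.45. The order was set with these values and is a description. Of the 146 strongest 1 and of the 146 weakest 6 were called lower after 2 h, beside 4.71% of all tested regions. In each set 1 was called higher, beside 2.28%. These few calls are not read as a difference between the sets.

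Members ranged over the whole scale. The 3 with the highest mean level were at Cebpz/Ndufaf7, Ptcd2/Mrps27 and Tmem126b/Dlg2, of which Ndufaf7 and Tmem126b act in the assembly of respiratory complex I and Mrps27 in the mitochondrial ribosome. The region of Cebpz/Ndufaf7 lay between 99.1 and 99.9 in the 8 libraries, that of Ptcd2/Mrps27 between 98.99 and 99.87 and that of Tmem126b/Dlg2 reached 99.8. The 3 lowest were at Srgap2/Fam72a, Tshz1/Zadh2 and Pdhx/Apip. They lay between 0.0867 and 4.11, between 0.647 and 6.06 and between 0.876 and 14.6, and none of the 6 passed the test at any time. The Srgap2/Fam72a region had 15 to 29 fragments at its summit, more than the median peak, with a low fold over its local background.

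Some gene pairs were listed for their place in the literature on shared promoters, and the pairs described here were found by the rule and had a tested region. Atm encodes the kinase that signals DNA double-strand breaks, and Npat a coactivator of histone genes. Their region, chr9:53536577-53537141, stood at 88.5 and 87.2 at 0 h, 88.5 and 94.2 after 30 min, 86.8 and 79.1 after 1 h and 80.9 and 84.7 after 2 h (adjusted p = 0.602 by limma after 2 h). Mcm4 encodes a subunit of the replicative helicase, and Prkdc the catalytic subunit of DNA-dependent protein kinase. Their region, chr16:15637257-15638090, stood at 82.9 and 88.9 at 0 h and 85.2 and 93.4 after 2 h (adjusted p = 0.662 by limma). At Atm/Npat both 2 h values were below both 0 h values and at Mcm4/Prkdc they overlapped them; neither pair passed the test.

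Brca1, which acts in repair by homologous recombination, and the autophagy receptor gene Nbr1 shared a weaker region than these, at 36.2 and 40.8 at 0 h and 12.1 and 31.0 after 2 h (adjusted p = 0.234 by limma). Gart of purine synthesis and the splicing gene Son had 2 tested regions. The one over an untranslated exon of Son stood at 84.5 and 95.5 at 0 h and 71.3 and 62.1 after 2 h (adjusted p = 0.0529 by limma), and the one between the genes at 52.2 and 37.0 and at 37.9 and 41.45 (adjusted p = 0.781 by limma). Of the listed pairs described here, only Mrps12/Sars2 had a called region, and only after 1 h. Of all tested regions, 2.51% were called lower and 1.1% higher after 1 h, and 4.71% and 2.28% after 2 h. The listed pairs are too few to be set against these shares.

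The gene classes often found in divergent pairs differed in level, and hardly any of their members were called. Genes of the respiratory chain had 28 tested members with a median of 85.8 ± 0.834 at 0 h and 83.2 ± 0.586 after 2 h, the highest 0 h median of the 7 classes. Replication-dependent histone genes, which lie in clusters and are transcribed in S phase, had 12, with 58.1 ± 7.18 and 57.4 ± 6.24, the lowest at 0 h. DNA repair and replication genes had 29 (81.6 ± 6.27 and 78.2 ± 1.24) and mitochondrial ribosome genes 24 (68.6 ± 1.56 and 55.9 ± 0.348). The proteasome had 10 (76.8 ± 4.46 and 66.1 ± 3.60), tRNA synthetases 6 (76.4 ± 2.52 and 74.2 ± 1.25) and zinc finger genes 17 (80.0 ± 6.45 and 74.5 ± 7.82). The change of a class median is not the change of its typical region. The median shift of single regions was -1.96 points in the respiratory chain, -6.67 in histones and -4.1 in DNA repair and replication. It was -3.06 in the mitochondrial ribosome, -10.45 in the proteasome, -2.26 in tRNA synthetases and -3.3 in zinc finger genes, beside -2.79 in all members. At 2 h 1 of these members was called lower, Zfp91/Lpxn among the zinc finger genes, and none was called higher by limma, beside 4.71% and 2.28% of all tested regions. A pair can belong to more than one class.

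In base composition members were closer to other promoters than to all tested regions, a set that includes both. The median GC content of the 200 bp around the summit was 63.5% in members, 63.5% in other promoters and 51.5% in all tested regions. The median CpG observed over expected ratio was 0.862, 0.817 and 0.275, and 89.1%, 80% and 22.2% of the regions had at least 0.6. The ETS word CCGGAAG was in 24.1% of the members, 18.9% of the other promoters and 5.79% of all tested regions. CCAAT was in 38.4%, 33.8% and 22.8%, GGGCGG in 61.6%, 60.5% and 18.9%, and the TATA word TATAAA in 2.13%, 2.94% and 7.22%, on either strand. For the NRF1 word GCATGCG the shares were 6.02%, 5.82% and 2.08%, for the YY1 word AAGATGG 7.03%, 6.23% and 4.3%, for TGACGTCA 3.51%, 3.42% and 0.998%, and for the E-box CACGTG 8.03%, 8.67% and 5.04%. Members with CCAAT had a median mean level of 82.4 and those without it 62.1; in other promoters these values were 79.75 and 63.9. Members with and without the ETS word stood at 77.0 and 68.9.

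Core words were denser in the members that fell. The 16 lower members had 8.5 ± 2.9 core words per 200 bp (mean ± SD over regions), the 779 that were not called 5.25 ± 2.55 and the 2 higher ones 2 and 5. In other promoters the 193 lower regions had 7.02 ± 2.46 and the 7383 not called 5.13 ± 2.48. Across tested members, Spearman's rho between the number of core words and the shift from 0 h to 2 h was -0.391; it was -0.326 in other promoters and -0.36 in all tested regions. The points share libraries and base composition: the median CpG ratio was 0.668 in the lower members and 0.867 in those not called. The part of base composition in this relation was not tested. At least 1 core word was in 99.4% of the members, as in 97.9% of all tested regions.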

How the data were processed

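ATAC-seq was measured in 8 libraries of B3 cells with Ikaros-ERt2, and groups and replicates followed the labels. Per the paper's methods and the submitters' processing notes, the authors aligned reads with BWA 0.7.17, shifted ends for the Tn5 offset with deepTools 2.3.5, retained only short, nucleosome-free fragments and ran MACS2 2.1.2 on each library; these steps fit ATAC-seq. A human genome is named in the methods text, but the peaks lie in mouse GRCm38 (mm10), the build of the notes. The deposited values are the fold over local background, a ratio, and each peak's −log10 of the p-value and of the q-value; none is scaled between libraries. A fold and its −log10 p fix the fragments at a summit, and a whole number came within 0.01 for 100.0% of the peaks. Fragments limit precision, and such counts cover counting error only.

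Peaks sharing a base were merged, and the highest fold of a region was ranked within each list among the 47875 regions found in all 8. Normal scores were fitted with limma 3.58.1 (R 4.3.3; 4 groups in 1 model; Benjamini-Hochberg adjustment; called under 0.01), checked on simulated data. Ranking among all peaks of a list, which the 8 list lengths affect, was an alternative, as were −log10 p ranks, recovered fragments, other filters, distances, extensions and start sites, a trended prior, a replicate block and leaving out each library. Gene starts came from GENCODE vM21 and exons and introns from its basic set; sequences and words were read from RefSeq's GRCm38.

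Named regions were the 5 largest falls and rises called at 2 h (only 2 rises exist), the 3 highest and 3 lowest levels, well-known pairs and pairs at the 1 kb limit; others are marked as named after their values were seen. The members, gene classes and words were chosen with earlier results of these data known. The study's exclusion list of regions and its count model were not used here. A marker gene and a listed pair are not reported here.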

Additional observations from a re-analysis of the deposited data

How the results depend on the processing

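Counts are of members called lower and higher at 30 min, 1 h and 2 h, which were 0 and 0, then 5 and 2, then 16 and 2; settings not named moved no count by over 1.5 times and no gap by over 1 SD. An adjusted p under 0.05 gave 4 lower after 30 min, 42 and 7 after 1 h and 71 and 9 after 2 h. Ranks among all peaks gave 3 lower at 1 h and 8 at 2 h, where the share of lower among all called regions went from 67.4% to 52.1%. Ranks by −log10 p gave 8 lower at 1 h. Peaks with −log10 q of at least 5 gave 12 lower and 1 higher at 1 h and 1 higher at 2 h. Regions in at least 2 lists gave 1 lower at 30 min and 1 higher at 1 h. Recovered fragments gave 3, 29 and 51 lower and 4 higher at 2 h, and the trended prior gave 1, 17 and 38 lower and 4 higher at 2 h; the cause was not tested. Starts of all transcripts gave 11 lower at 1 h, and no extension gave 0 higher at 1 h and 2 h. Leaving out 1 library gave 0 lower and 0 higher at 30 min, 0 to 2 lower and 0 to 1 higher at 1 h, and 0 to 13 lower and 0 to 2 higher at 2 h.

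Same-numbered replicates share only a number: their deviations correlated at 0.0172 to 0.0403. A replicate block gave 0 lower and 0 higher after 30 min, 2 lower and 1 higher after 1 h and 9 lower and 2 higher after 2 h; 11 of the 18 members called at 2 h passed again.

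The gap was 2.03, 0.19, 0.66 and 1.31 points at 0 h, 30 min, 1 h and 2 h. It was 6.45, 5.02, 6.32 and 5.83 with no extension, -0.29, -2.12, -1.47 and -0.50 with 500 bp, 3.71, 1.53, 3.17 and 3.84 for pairs within 300 bp, and 9.47, 8.09, 8.51 and 8.62 against other promoters within 1 kb of a start. With no extension, the 300 bp limit or the 1 kb window, the other promoters took in regions of or beside the divergent pairs. With 500 bp only the members' window was widened. Ranked by −log10 p the gap was 3.89, 2.22 and 2.1 up to 1 h. It was -0.62 at 30 min with the stricter q-value, -0.28 at 1 h with all transcript starts, and -0.88, -0.56 and -0.14 after 0 h against CpG-rich promoters. Leaving out 1 library gave 1.27 to 2.78 at 0 h, -0.23 to 0.61 at 30 min, -0.01 to 1.33 at 1 h and 0.78 to 1.84 at 2 h. With 2 libraries a group and 11 to 14 fragments at the median summit, small changes of single weak regions cannot be seen. Larger changes could miss the threshold too. The Mmab/Mvk region with both starts went from a mean of 85.3 at 0 h to 49.8 after 2 h (adjusted p = 0.0318 by limma).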
